A study of Arabidopsis thaliana with 6 samples.

Results

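The genes described here are 10 cold and osmolyte effector genes of Arabidopsis thaliana, the proteins and enzymes that act at the end of the cold and drought response, and the question asked of them was whether SOC1 fused to GFP was found near them. They are COR15A (AT2G42540), COR15B (AT2G42530), COR47 (AT1G20440), KIN1 (AT5G15960), KIN2 (AT5G15970), RD29A (AT5G52310), P5CS1 (AT2G39800), GolS1 (AT2G47180), GolS2 (AT1G56600) and GolS3 (AT1G09350), chosen by locus identifier. They are among 22909 genes to which the position rule given next assigned a region of the study's deposited table. A region was given to a gene where its centre overlapped the gene, or lay up to 3000 bp upstream or up to 1000 bp downstream of it. This gave 14 regions of the 24032 listed, in 16 pairs of gene and region, and each of the 10 genes had at least 1. The rule used no read count, but the genes were proposed with earlier results known, which were the read counts of gSOC1-GFP against untagged gSOC1. These counts are therefore given as a description, and nothing is tested over the list.

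The study used chromatin immunoprecipitation followed by sequencing (ChIP-seq), which counts DNA fragments that an antibody pulls down with a protein. The tagged group was SOC1p:gSOC1-GFP in the soc1-2 mutant (line 7, tag mGFP6, 3 libraries), a genomic SOC1 copy fused to GFP under its own promoter. The control group was SOC1p:gSOC1 in the same soc1-2 mutant (line 9, 3 libraries), the same copy without GFP. Each genotype was 1 transgenic line, so the tag and the line cannot be told apart. Both groups were shoot apices after 15 short days and 3 long days, collected at zeitgeber time 4, and the same anti-GFP antibody was used on both, which makes the untagged libraries a measure of background. The libraries of gSOC1-GFP held 663108, 183668 and 262776 reads in the listed regions for replicates 1, 2 and 3, and those of untagged gSOC1 held 396326, 41073 and 61963. Over all listed regions the median count was 15, 5 and 8 for gSOC1-GFP replicates 1, 2 and 3 and 6, 1 and 2 for the untagged replicates, and this depth sets the precision of everything below. Whether replicate libraries came from separate plantings is not stated in the labels. Every p-value of a fit across libraries therefore rests on a spread between libraries that could be technical. The authors' deposited values for single replicates each compare 1 tagged with 1 untagged library, so they hold no spread between replicates.

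In the cold, CBF transcription factors are made within a short time and switch on effector genes through the CRT/DRE element in their promoters. Some of the effectors are hydrophilic proteins that protect membranes and other proteins as cells freeze or dry. Others are enzymes that make small protective solutes, proline and sugars of the raffinose family. SOC1, a MADS-domain protein, acts to bring on flowering, and in Arabidopsis it has been described as a repressor of CBF genes.

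Among the 10 genes 2 had a called region, GolS2 and P5CS1, and both encode enzymes that make osmolytes. A called region is one whose false discovery rate (FDR) in the authors' deposited table was below 0.05 in each of the 3 replicates. Over all assigned genes 1.75% had a called region, and 1.12% of all listed regions were called, against 2 of the 14 regions of these genes. A region shared by KIN1 and KIN2 passed in 2 replicates and a region of RD29A in 1. With at least 2 replicates 3 of the 14 regions (2.62% of all listed regions) and 4 of the 10 genes (4.08% of all assigned genes) thus passed. In single replicates 4, 2 and 3 of the 14 regions passed in replicates 1, 2 and 3, beside 10.1%, 2.86% and 3.16% of all listed regions. None of the regions of COR15A, COR15B, COR47, GolS1 and GolS3 passed in any replicate, and over all listed regions 12.4% passed in at least 1, as did a region of 18.9% of all assigned genes. The 14 regions had a median log2 enrichment of 0.27 over the untagged libraries, beside 0.31 for all listed regions and 2.43 for called regions. RPM stands for reads scaled to 1000000 listed reads of a library. Log2 enrichment is the log2 ratio of scaled reads, gSOC1-GFP over untagged gSOC1, of a pair of libraries with the same replicate number, scaled by TMM (trimmed mean of M values) library sizes, and means are over 3 pairs.

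**Figure D1:**
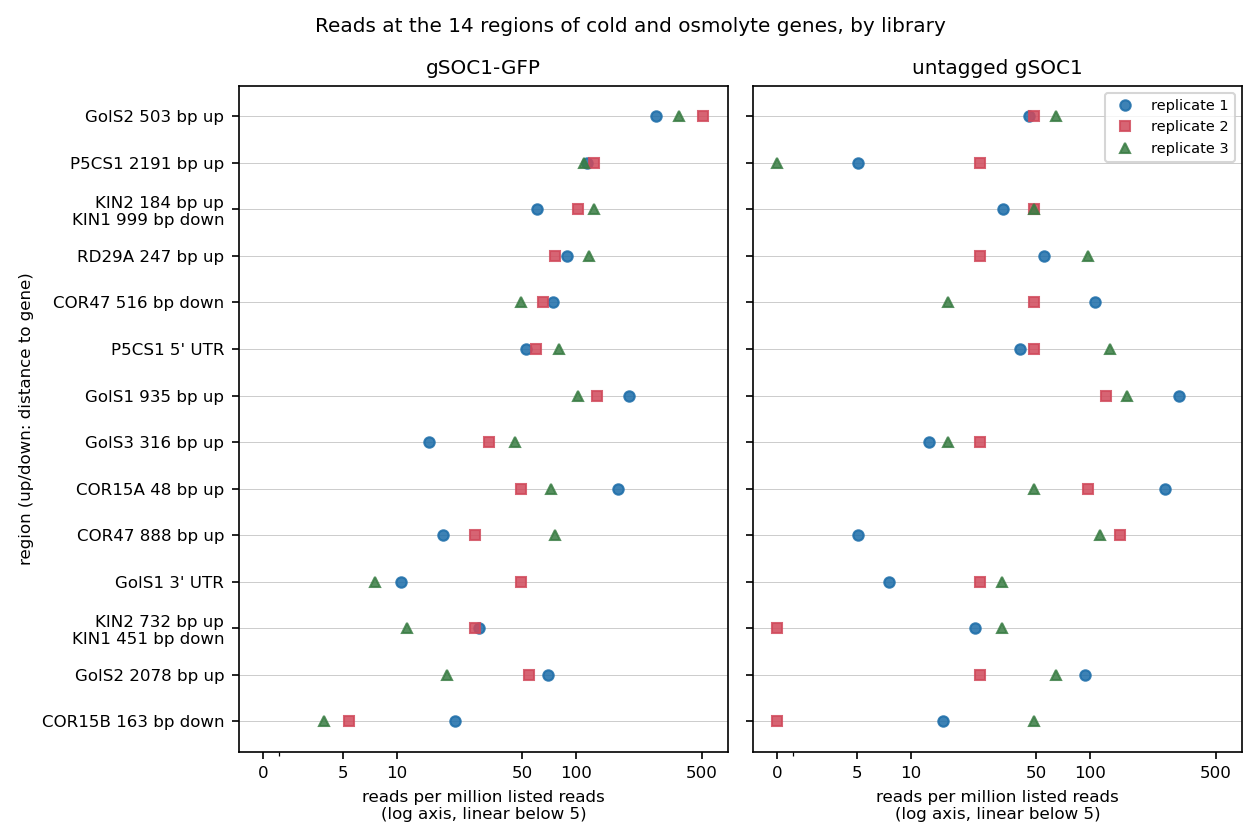
RPM (horizontal log axis, linear below 5) at each of the 14 regions (vertical axis, by rank in the deposited table), with gSOC1-GFP libraries on the left, untagged gSOC1 libraries on the right and 1 symbol per replicate. At GolS2 503 bp upstream the gSOC1-GFP libraries lie between 279 and 512 and the untagged libraries between 45.4 and 64.6, whereas at GolS1 935 bp upstream and at COR15A the highest point of both panels is untagged replicate 1.

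GolS2 encodes a galactinol synthase, the enzyme of the first committed step of raffinose family synthesis, and is known in Arabidopsis as a gene induced by drought and salt. Its called region was centred 503 bp upstream of the gene, on chromosome 1 from 21206883 to 21207184 (TAIR10, start as deposited), and had rank 64 in the deposited table. It held 185, 94 and 98 reads in gSOC1-GFP replicates 1, 2 and 3, against 18, 2 and 4 reads in the untagged replicates. These were 279, 512 and 373 RPM in gSOC1-GFP against 45.4, 48.7 and 64.6 RPM in untagged gSOC1. The lowest tagged library was above the highest untagged one, which was also the case at 8.34% of all listed regions. The log2 enrichment was 2.14, 3.63 and 2.70 in the 3 pairs, a mean of 2.82 ± 0.75 (SD, n = 3), or 7.08-fold, and 99.4% of listed regions had a lower mean.

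From the counts of a single pair, the fold at this GolS2 region was 4.59 (95% exact interval 2.83 to 7.92) in replicate 1, 13.8 (3.70 to 115) in replicate 2 and 6.98 (2.64 to 26.1) in replicate 3. All 3 intervals lay above 1, and they overlapped one another. Such intervals cover counting error only, since reads after PCR are not independent molecules. The authors' deposited table gave it an FDR of 1.99e-24, 1.52e-13 and 1.28e-10 in replicates 1, 2 and 3. The region also lay 2291 bp upstream of AT1G56590, which points the other way, so it belongs to the space between both genes. The position rule gave it to both of them, and it lay nearer to GolS2.

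P5CS1 encodes the enzyme of the first and rate-limiting step of proline synthesis from glutamate. Its called region was centred 2191 bp upstream, on chromosome 2 from 16605374 to 16605648 (TAIR10, start as deposited), at rank 168, and no other gene lay within the windows. It held 76, 23 and 29 tagged reads in replicates 1, 2 and 3, against 2, 1 and 0 untagged reads. The tagged libraries lay close together, at 115, 125 and 110 RPM, against 5.05, 24.3 and 0 RPM in the untagged libraries, with no overlap between the groups. The log2 enrichment was 3.52, 2.49 and 4.63, with a mean of 3.55 ± 1.07 (SD, n = 3), above 99.8% of listed regions.

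That mean depends on very few untagged reads. The prior count, a number of reads added to both libraries before the ratio is taken, was 1, and a prior count of 10 gave 1.67. The fold was 17.0 (95% exact interval 4.54 to 143) in replicate 1 and 6.73 (1.09 to 277) in replicate 2. In replicate 3, where no untagged read was counted, the 95% exact interval began at 2.10, and the ratio to a floor of 3 reads in that library was 2.75. The authors' deposited table gave an FDR of 0.0105 in replicate 2 and 0.000665 in replicate 3, so P5CS1 was not called at an FDR of 0.01. It was also the more distant of the called regions, and with genes assigned only up to 1000 bp upstream GolS2 was the single gene left.

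**Figure D2:**
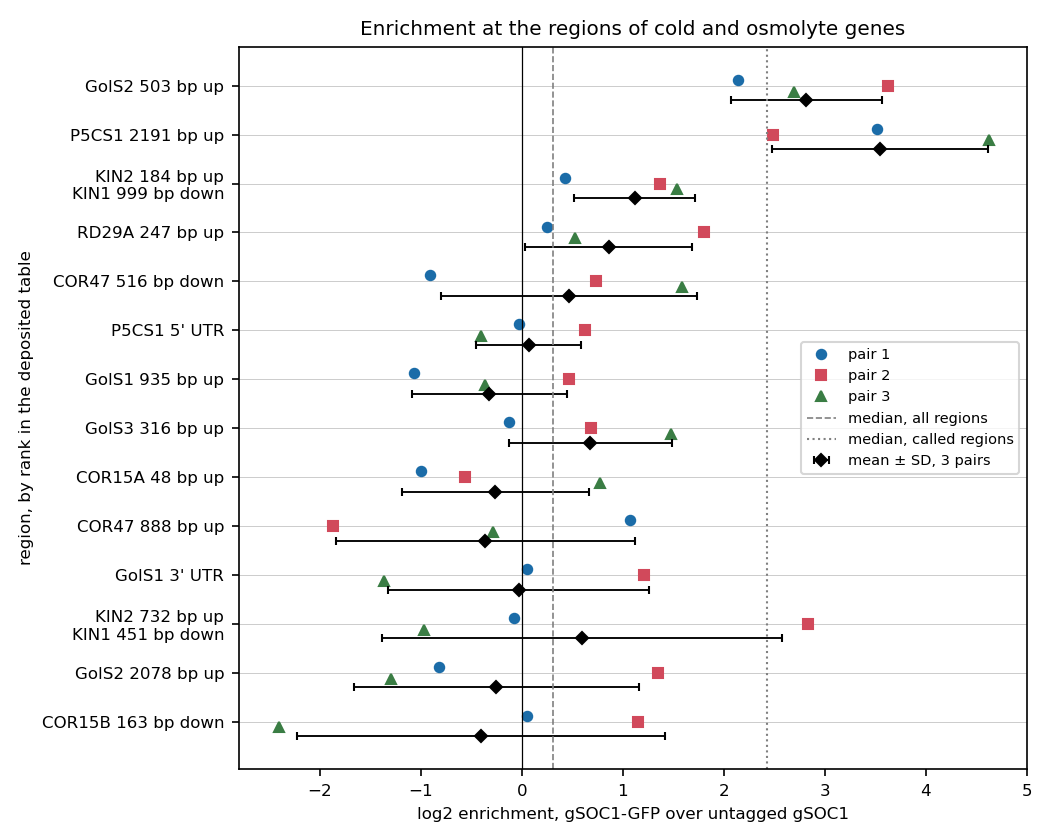
Log2 enrichment of gSOC1-GFP over untagged gSOC1 (horizontal axis) at each region (vertical axis, by rank), with coloured symbols for the 3 pairs, a black diamond and bar for their mean ± SD, and dashed and dotted lines for the median of all listed (0.31) and of called regions (2.43). All pairs of GolS2 503 bp upstream and P5CS1 2191 bp upstream lie above 2, and most other regions have pairs on both sides of 0.

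The second region of each of these genes had a mean near 0. The other region of GolS2, 2078 bp upstream and only 716 bp upstream of AT1G56590, held 46, 10 and 5 reads in gSOC1-GFP and 37, 1 and 4 reads in untagged gSOC1, a mean log2 enrichment of -0.25 ± 1.41 (SD, n = 3). The other region of P5CS1, centred in its 5' UTR, held 35, 11 and 21 reads in gSOC1-GFP and 16, 2 and 8 reads in untagged gSOC1. Its mean was 0.07 ± 0.52 (SD, n = 3). At both regions the groups overlapped. P5CS1 had a further listed region 3675 bp upstream, just outside the window, with 7, 5 and 4 reads in gSOC1-GFP and 5, 1 and 4 reads in untagged gSOC1. Just inside a window lay the KIN1 region 999 bp downstream of that gene, described next.

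KIN1 and KIN2 are adjacent genes on the same strand that encode closely similar small hydrophilic proteins induced by cold. The stretch between them held both of their regions, so each is counted downstream of KIN1 and upstream of KIN2. The region centred 184 bp upstream of KIN2 and 999 bp downstream of KIN1 lay on chromosome 5 from 5211526 to 5211927 (TAIR10, start as deposited), at rank 536. It held 40, 19 and 33 tagged reads in replicates 1, 2 and 3, against 13, 2 and 3 untagged reads. The tagged libraries had 60.3, 103 and 126 RPM, all above the untagged libraries at 32.8, 48.7 and 48.4 RPM.

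This KIN2 region had a log2 enrichment of 0.43, 1.37 and 1.54, with a mean of 1.12 ± 0.60 (SD, n = 3) or 2.17-fold, which was lower than that of GolS2 or P5CS1 and above 83.9% of listed regions. The authors' deposited table gave an FDR of 0.0416, 0.113 and 0.0218 in replicates 1, 2 and 3, so that replicate 2 kept it from being called. The 95% exact interval of the fold began below 1 in every pair, at 0.720, 0.671 and 0.983. The second region between the genes, 732 bp upstream of KIN2 and 451 bp downstream of KIN1, held 19, 5 and 3 reads in gSOC1-GFP and 9, 0 and 2 reads in untagged gSOC1. Its mean of 0.60 ± 1.98 (SD, n = 3) rested on replicate 2, the one pair above 0, and without that replicate it was -0.52.

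RD29A, listed as LTI78 in RefSeq, encodes a hydrophilic protein whose promoter responds to cold, drought, salt and abscisic acid and is a standard reporter of these responses. Its region, 247 bp upstream on chromosome 5 from 21240420 to 21240784 (TAIR10, start as deposited), had rank 880. It held 59, 14 and 31 reads in gSOC1-GFP and 22, 1 and 6 reads in untagged gSOC1. The tagged libraries of replicates 1 and 2, at 89.0 and 76.2 RPM, were below the untagged library of replicate 3, at 96.8 RPM. The log2 enrichment was above 0 in each pair, at 0.25, 1.81 and 0.53, with a mean of 0.86 ± 0.83 (SD, n = 3), and it was 0.39 without replicate 2. The authors' deposited table gave an FDR of 0.0287 in replicate 1, 0.148 in replicate 2 and 0.152 in replicate 3. In replicate 1, whose FDR passed, the fold on the TMM scale was 1.20 (95% exact interval 0.723 to 2.05), with 89.0 RPM in gSOC1-GFP against 55.5 RPM in untagged gSOC1.

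The regions of GolS2, P5CS1, RD29A and the KIN2 region nearest the gene were the 4 of 14 with enrichment above 0 in all 3 pairs, beside 16.4% of all listed regions. The tagged and untagged libraries did not overlap at 3 of the 14, where 8.34% of all listed regions had no overlap. The exact interval of the fold lay above 1 in all 3 pairs at 2 of the 14, GolS2 503 bp upstream and P5CS1 2191 bp upstream, and in no pair at the other 12. The share of all listed regions with such intervals was not computed, so how unusual this count is cannot be told.

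**Figure D3:**
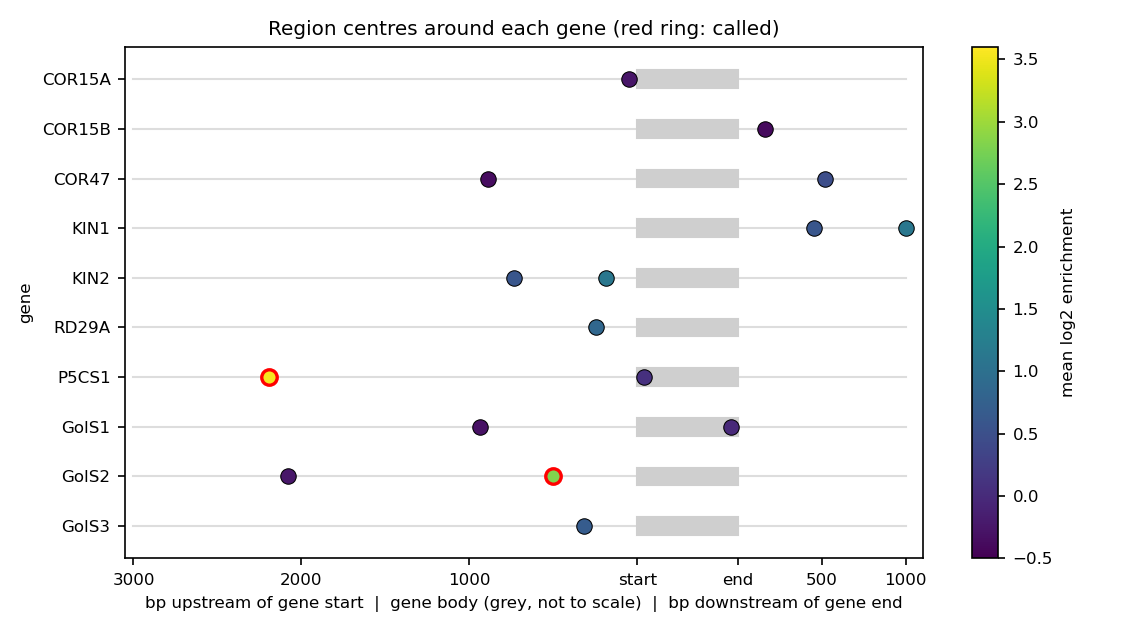
Centres of the regions around each gene (vertical axis), as the distance in bp upstream of the gene start or downstream of its end (horizontal axis), with the gene body in grey and not to scale, the colour of each point giving the mean log2 enrichment and a red ring marking called regions. The called regions lie 503 bp upstream of GolS2 and 2191 bp upstream of P5CS1, and regions closer to a gene start, such as that 48 bp upstream of COR15A, were not called.

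COR15A and COR15B are neighbouring genes for chloroplast proteins that stabilise membranes during freezing. The region 48 bp upstream of COR15A held 114, 9 and 19 reads in gSOC1-GFP and 103, 4 and 3 reads in untagged gSOC1, a mean log2 enrichment of -0.26 ± 0.93 (SD, n = 3). Scaled to depth, replicate 1 had 172 RPM in gSOC1-GFP against 260 RPM in untagged gSOC1. The one region of COR15B, 163 bp downstream and inside the 3' UTR of AT2G42520, had 14, 1 and 1 reads in gSOC1-GFP and 6, 0 and 3 reads in untagged gSOC1. Its fold in replicate 1 was 1.04 (95% exact interval 0.376 to 3.31), and the interval included 1 in the other pairs too.

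COR47 encodes a dehydrin, a protein that binds water and membranes as cells lose water. The region 888 bp upstream of it held 12, 5 and 20 reads in gSOC1-GFP and 2, 6 and 7 reads in untagged gSOC1. The pairs differed in direction there, at 1.07, -1.87 and -0.28, for a mean of -0.36 ± 1.48 (SD, n = 3), and in replicate 2 the interval of the fold, 0.0589 to 0.959, lay below 1. The region 516 bp downstream of COR47, which lay only 57 bp upstream of AT1G20430, held 49, 12 and 13 reads in gSOC1-GFP and 42, 2 and 1 reads in untagged gSOC1. The pairs differed in direction there too, at -0.91, 0.74 and 1.59, for a mean of 0.47 ± 1.27 (SD, n = 3).

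The galactinol synthases other than GolS2 had no region that passed in any replicate. GolS1 is known for induction by heat, drought and salt, and GolS3 for induction by cold. The region 935 bp upstream of GolS1 held 130, 24 and 27 reads in gSOC1-GFP and 123, 5 and 10 reads in untagged gSOC1, a mean log2 enrichment of -0.32 ± 0.77 (SD, n = 3). The region in the 3' UTR of GolS1 had 7, 9 and 2 reads in gSOC1-GFP and 3, 1 and 2 reads in untagged gSOC1. The region 316 bp upstream of GolS3 held 10, 6 and 12 reads in gSOC1-GFP and 5, 1 and 1 reads in untagged gSOC1, with a mean of 0.68 ± 0.81 (SD, n = 3). In GolS3 the intervals of the fold ran from 0.278 to 3.33 in replicate 1, from 0.213 to 80.8 in replicate 2 and from 0.506 to 146 in replicate 3, so that the mean fold of GolS2, 7.08, lay inside the intervals of replicates 2 and 3 and above that of replicate 1.

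Read density in the untagged library of replicate 1 was high at several regions that were not called. It was 265 reads per kb at COR15A and 244 at the region upstream of GolS1, above 96.4% and 95.6% of listed regions. At GolS2 2078 bp upstream it was 168 and at COR47 516 bp downstream it was 148 reads per kb. In these 4 regions the fold of replicate 1 and its interval lay below 1, for example 0.472 (95% exact interval 0.366 to 0.609) at GolS1. The regions were picked for high counts in the library that is the divisor of this fold. A low fold in replicate 1, and a rise without that replicate, thus follow in part from the choice. Without replicate 1 the mean log2 enrichment was 0.11 at COR15A, 0.05 at GolS1, 0.03 at GolS2 2078 bp upstream and 1.17, against 0.47 with it, at COR47 516 bp downstream. The called regions had 59.6 reads per kb (GolS2) and 7.27 reads per kb (P5CS1) in that library. The part of this background in the missing calls was not tested.

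**Figure D4:**
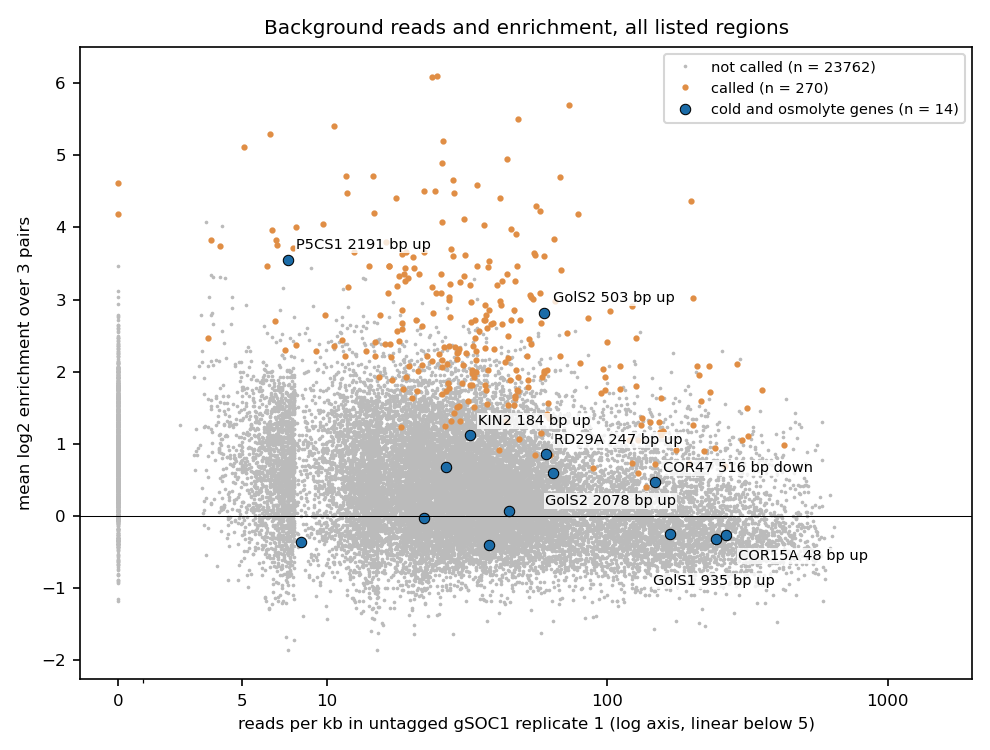
Mean log2 enrichment over 3 pairs (vertical axis) against reads per kb in untagged gSOC1 replicate 1 (horizontal log axis, linear below 5) for all 24032 listed regions, with called regions in orange and the 14 regions of the cold and osmolyte genes in blue. P5CS1 2191 bp upstream and GolS2 503 bp upstream lie among the called regions, and COR15A and GolS1 935 bp upstream lie toward the right of the cloud near 0.

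In a fit across all 24032 regions, edgeR's quasi-likelihood test without a replicate block gave 0 regions (0%) an adjusted p below 0.05 (Benjamini-Hochberg). An unadjusted edgeR p under 0.05 was found at 762 of the 24032 regions. P5CS1 2191 bp upstream and GolS2 503 bp upstream were the 2 of the 14 regions among these. Their log2 fold changes in that fit were 3.84 at P5CS1 (edgeR adjusted p = 0.386) and 2.82 at GolS2 (edgeR adjusted p = 1). Adding the replicate number to the edgeR fit as a block gave 91 calls (0.379% of the regions tested, all higher in gSOC1-GFP), and P5CS1 was the 1 of the 14 among them (edgeR adjusted p = 0.00776), while GolS2 was not (edgeR adjusted p = 0.0579). With the block, P5CS1 was not called without replicate 1 (edgeR adjusted p = 0.569) or without replicate 3 (0.0532), and GolS2 was called without replicate 1 (0.0199). DESeq2 without the block called GolS2 (adjusted p = 0.00807), as 1 of 96 called among the 3958 regions to which it gave an adjusted p (2.43%), and gave P5CS1 none. Over all alternatives the edgeR or DESeq2 adjusted p ran from 0.000207 to 0.812 at P5CS1 and from 0.000139 to 1 at GolS2. At the KIN2 region and at RD29A the log2 fold change was 1.12 and 0.58, and neither was called under any of the alternatives. At some uncalled regions the log2 fold change of the edgeR fit without the block had the other sign from the mean log2 enrichment. It was -0.31 at COR47 516 bp downstream and -0.09 at KIN2 732 bp upstream. In the UTR regions of P5CS1 and GolS1 it was -0.06 and 0.24. The members were proposed with results of this contrast known, so these p-values are not independent evidence. On simulated counts, edgeR recovered 56% of regions given an 8-fold change without the block, and 88% with it. At 4-fold it recovered 4% and 22%. In the simulation both libraries of a replicate number shared an effect, and the spread between libraries was taken from the fit with the block. The gain from the block was thus built in, and these shares hold for the simulated setting only. A missing edgeR call at such folds therefore does not show that a region lacked enrichment.

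The genes around these effectors in the same pathways were counted in the same way, from a list of 24 genes that was also drawn up with earlier results known. Called regions were found at 3 of the 24, beside 1.75% of all assigned genes, and 21 of the 24 had a listed region. These were CBF1, CBF2 and CBF3, genes in tandem that encode the activators of the cold effectors and that share regions. The best-ranked regions of these 3 genes had mean log2 enrichments of 3.98 ± 0.23 (CBF1), 3.45 ± 0.88 (CBF2) and 2.56 ± 0.27 (CBF3), with SD and n = 3 each. The means of P5CS1 and GolS2 with a prior count of 1, 3.55 and 2.82, lay within this range. A prior count of 10 gave 1.67 at P5CS1 and 2.18 at GolS2, and no such value is given here for the CBF regions. In gSOC1-GFP replicates 1, 2 and 3 the RPM was 998, 1890 and 1350 at CBF1 and 662, 958 and 525 at CBF2. It was 205, 283 and 194 at CBF3, 279, 512 and 373 at GolS2 and 115, 125 and 110 at P5CS1. CBF4, a related gene known for a response to drought, had 20, 13 and 15 reads in gSOC1-GFP and 6, 2 and 1 reads in untagged gSOC1 at its best-ranked region, which passed in no replicate.

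The relatives and neighbours named next, all from the list of 24 genes, carried no called region. P5CS2, the second gene for the same step of proline synthesis, had 7, 9 and 7 reads in gSOC1-GFP and 0, 1 and 7 reads in untagged gSOC1 in the region 55 bp upstream of it, a mean of 0.52 ± 1.92 (SD, n = 3). RD29B, the tandem neighbour of RD29A, had a mean of -0.10 ± 0.80 at the region 238 bp upstream, and ERD10, a dehydrin gene next to COR47, had -0.07 ± 0.50 at the region 449 bp upstream. GolS4 and GolS5 had means of 0.78 ± 1.98 and -0.42 ± 0.94 at their best-ranked regions, and RS5, a raffinose synthase gene, had 0.45 ± 0.90 (SD, n = 3 each).

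ProDH1, which encodes the proline dehydrogenase that starts proline breakdown, had 3 regions, each past the FDR in 1 replicate. The best-ranked, 2627 bp upstream at rank 353, held 88, 31 and 26 reads in gSOC1-GFP and 9, 6 and 3 reads in untagged gSOC1. Its mean log2 enrichment was 1.27 ± 0.72 (SD, n = 3), close to that of the KIN2 region. ZAT12, a zinc finger gene of the stress response, and ERD14, a dehydrin gene, also had 1 region each that passed in 1 replicate, at means of 0.72 ± 1.03 and 0.60 ± 0.98 (SD, n = 3 each).

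**Figure D5:**
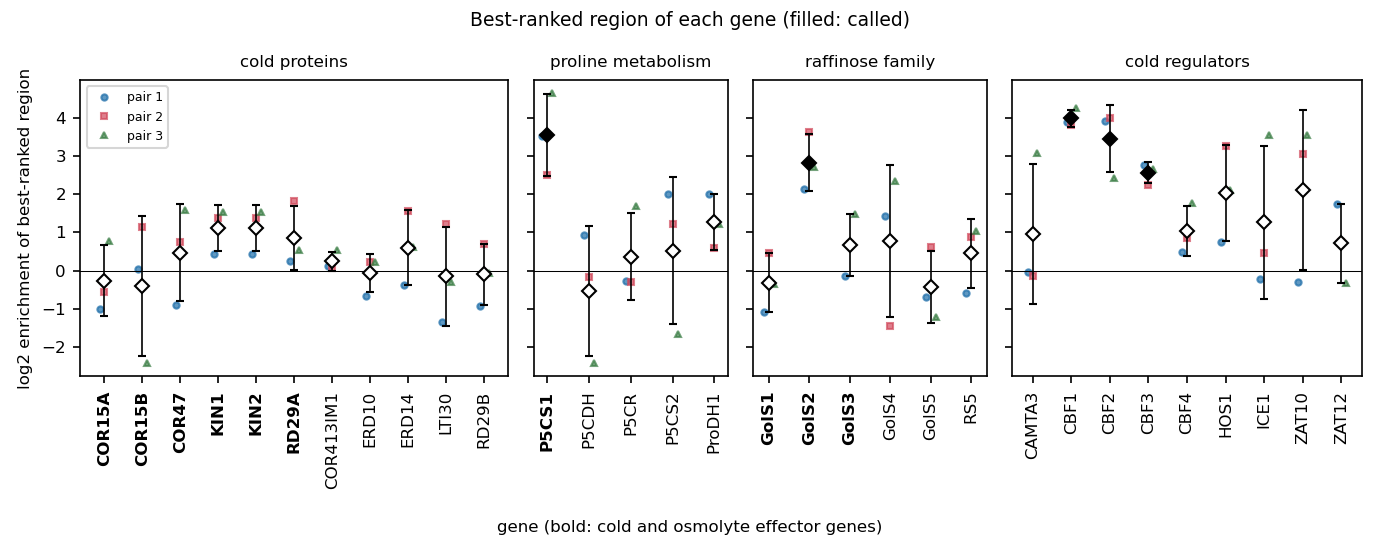
Log2 enrichment of the best-ranked region (vertical axis) of each gene with a listed region (horizontal axis), by pathway, with small symbols for the 3 pairs and diamonds with bars for the mean ± SD; filled diamonds have a called region and bold names are the cold and osmolyte effector genes. Filled diamonds stand at P5CS1 and GolS2 among the effectors and at CBF1, CBF2 and CBF3 among the regulators.

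In layout, of the 14 regions of the effector genes, 10 lay upstream of an effector gene and 6 were shared with a gene that was not among the effectors. Their median length was 279 bp, beside 212 bp for all listed and 338 bp for called regions. Of the 10 genes, 6 had 2 regions and 4 had 1, and 50.9% of all assigned genes had 1.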

How the data were processed

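The authors deposited raw read counts per region and library for 24032 regions, not normalized, per the definitions of the columns. The p-value columns are the authors' Benjamini-Hochberg FDR for each replicate, and the test behind them, like the aligner and region caller, is not stated in the sources at hand. The deposited log2 column is the log2 rank product of these FDR values, and the authors' rank score orders regions by it; both served only for ordering. The build is TAIR10, per the submitters' processing notes. Whether starts count from 0 or 1 is not stated, and ends were computed from start and length.

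Log2 enrichment was computed on TMM-scaled library sizes after adding a prior count of 1, itself scaled by library size. Fold intervals are 95% Clopper-Pearson intervals of the tagged share of a pair's reads (scipy 1.17.1), scaled by the same sizes. All regions were fitted with edgeR 4.0.16 (R 4.3.3), with neither replicate block nor filter, and with DESeq2 1.42.0 as an alternative. On simulated counts, edgeR without the block recovered 4% of regions given a 4-fold change, 56% at 8-fold and 96% at 16-fold. With the block these shares were 22%, 88% and 100%. The simulated libraries of a replicate number shared an effect, and their spread was taken from the fit with the block. The gain from the block was thus built in. False calls numbered 1 without the block and 2 with it. Replicate numbers come from the titles, and the deposited FDR sets the same numbers against each other. Deviations from the group means correlated, between libraries of the same number, at 0.498 (replicate 1), 0.123 (replicate 2) and 0.139 (replicate 3). All exceeded the bound of 0.1, so the replicate number was treated as a pairing in the fits with the block. These were alternatives, and the main fit did not use the pairing. For replicates 2 and 3 the margin over the bound was small. Libraries of unequal number, gSOC1-GFP replicate 3 and untagged replicate 2, reached 0.131, which was above the value of replicate 2. Only replicate 1 stood clear of the libraries of unequal number, so the pairing is weakly founded for the others.

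The members and the list of 24 genes were chosen with earlier results of these data known. All 10 members with all their regions are named, and of the other list those with a region past the FDR in at least 1 replicate. The relatives and neighbours named beside them (CBF4, P5CS2, RD29B, ERD10, GolS4, GolS5 and RS5) were picked after their values were seen. All 10 and all 24 were found in the RefSeq gene table, which was used only for names. Sequence under the regions was not analysed here.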

Additional observations from a re-analysis of the deposited data

How the results depend on the processing

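Depth limited the pairs of replicates 2 and 3, whose untagged libraries had at most 10 reads in any of the 14 regions. The number of effector genes with a called region was 2 as reported, 1 at an FDR of 0.01 or with 1000 bp upstream, and 4 with at least 2 replicates, where KIN1 and KIN2 joined by their shared region. Without 1 replicate it ranged from 2 to 4, and it could not fall, since a region then had to pass in fewer replicates. The number of called effector regions was 1 at an FDR of 0.01 or with 1000 bp upstream. With each replicate left out in turn it ranged from 2 to 3, and for the same reason it could not fall. The number of CBF and other pathway genes with a called region was 3 under every alternative, which were added after seeing the data. Only an FDR of 0.01 and 1000 bp upstream could have lowered it, since the other alternatives relaxed the rule.

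The number of regions edgeR called over the whole table was 0, against 91 with the replicate block, 4 with a filter on low counts, 18 with library totals, 211 with library totals and the block (added after seeing the data) and 96 with DESeq2. Without 1 library it ranged from 0 to 51 (without untagged replicate 1), and with the block and without replicate 1, 2 or 3 it was 71, 119 or 69. Among the 14 effector regions it was 0, against 1 with the replicate block, 2 with library totals and the block and 1 with DESeq2. Leave-one-out fits gave between 0 and 1, and the region differed: with the block it was GolS2 without replicate 1 (edgeR adjusted p = 0.0199) and P5CS1 without replicate 2 (0.00177), and there was none without replicate 3. The second region with library totals and the block was GolS2 (edgeR adjusted p = 0.000139, against 0.448 without the block). Of 28 values of log2 enrichment with another prior count or scaling, 27 moved by less than 1 SD, and the exception was P5CS1 with a prior count of 10, at 1.67. Leaving out 1 of 3 pairs cannot move a mean that far, so the other 42 alternative values do not bear on this. In 12 of all 70 the sign turned, all at regions that were not called. The cause of these changes was not tested.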
